A study of Mus musculus with 2 samples.

Results

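The miRNA genes described here lie inside Sfmbt2, on the plus strand of mouse chromosome 2. Every annotated miRNA gene that starts within Sfmbt2 (10370510 to 10595253, mm10 assembly, GENCODE annotation M21) was taken, which gave 119 of the 2202 miRNA genes in the tables, and none of the 119 was chosen by its level. Short RNAs were sequenced from total RNA of the hearts of male B6CASTF1/J mice, an F1 hybrid of the B6 and CAST strains, in 2 libraries that form 1 group. The mice were aged 36 days by the age label, although months stand beside that number in a description. The libraries are labelled as biological replicates 1 and 2. Their males have different numbers but a common donor record, so SDs measure the spread between these samples and may be partly technical. No treatment and no second tissue or genotype was labelled, so the data give levels and a comparison of 2 replicate libraries, with no contrast between conditions.

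Sfmbt2 encodes a Polycomb group protein, one of the regulators that keep genes silent. In mice it is imprinted, with expression from the paternal allele that is best known from the placenta and other extraembryonic tissue. One of its introns carries a large array of miRNA hairpins of the mir-297, mir-466, mir-467 and mir-669 families, which is known from rodents and which the placenta needs for normal growth. A hairpin is the folded precursor from which a mature miRNA is cut, and the bases of its seed guide it to target mRNAs. The counts used here do not separate the B6 allele from the CAST allele, so imprinting was not measured.

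Library 1 held 1999362 and library 2 held 1862526 sense-strand reads of miRNA genes, out of 5479149 and 4893073 reads. Levels are counts per 1000000 assigned sense-strand reads (CPM), with mean ± SD over n = 2. Reads from the 5′ and 3′ arms of a hairpin are counted together, but reads that map to several places are not among them. Short RNA reads span a mature miRNA, so levels were not divided by gene length. The heart label was checked with the myosin-hosted muscle miRNA Mir208a, which stood at 7004 CPM in library 1 and 3393 in library 2. From the same list of muscle markers, Mir208b stood at 150.5 and 103.1 CPM. Mir499 was higher in library 2 instead, at 1336 and 3141 CPM. The Mir1a and Mir133a loci, which share sequence with each other in pairs, stood between 1.07 and 57.5 CPM. Markers of early embryo and trophoblast (Mir290a, Mir291a, Mir292, Mir294 and Mir295) summed to 3.00 and 2.68 CPM, with Mir290a, Mir291a and Mir295 at 0 in both libraries. The pluripotent list of Mir302a to Mir302d and Mir367 summed to 12.5 CPM in library 1 and 244.8 in library 2. Reads that mapped to several places made up 41.5% and 42.9% of each library and are listed in a row of their own, outside every gene.

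All 119 hairpins lie in 1 intron. It runs from 10461473 to 10523944 and is 62472 bases long, between exons 10 and 11 of transcript Sfmbt2-201 and between exons 11 and 12 of Sfmbt2-205, and none of the hairpins overlaps an annotated Sfmbt2 exon. The array itself runs from 10465287 to 10518279, over 53.0 kb, from Gm22072 to Mir669h. By symbol it holds 5 Mir297, 23 Mir466, 14 Mir467 and 29 Mir669 genes and 48 genes with only a Gm number. No miRNA gene is annotated on the opposite strand within Sfmbt2.

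The hairpins resemble each other and are rich in alternating repeats. Steps from C to A, A to C, T to G or G to T made up a median of 50% of all steps from one base to the next in the 119 hairpins (range 32.5 to 66.7%), against a median of 26.6% in the 2083 other miRNA genes. Their median GC content was 37.3%, against 51.7% in the others. The member hairpins were 73 to 127 bases long, with a median of 98.

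The repeat character can be read from mature miRNAs of the same families that are encoded outside Sfmbt2. RefSeq (build GRCm38.p6) gave a mature sequence for 8 of the 10 related genes elsewhere. Shown are 4 of these, those with the most frequent seeds in the Sfmbt2 hairpins and that with the rarest. The seeds not shown occur in 10 to 50 members. Capitals mark the seed, bases 2 to 8 from the 5′ end.
miR-467g (chromosome 5): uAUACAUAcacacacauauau
miR-466j (chromosome 10): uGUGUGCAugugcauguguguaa
miR-466i-3p (chromosome 13): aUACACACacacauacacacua
miR-467h (chromosome 9): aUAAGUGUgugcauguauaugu
The letters AUACAUA of miR-467g occur on the sense strand of 78 of the 119 hairpins (65.5%), against 6.49% of all 2202. Those of miR-466j, GUGUGCA, occur in 62 (52.1%), against 4.81%, and those of miR-466i-3p, UACACAC, in 60 (50.4%), against 8.17%. UACACAC occurs in each of the 7 members that had 10 or more reads. The seed of miR-467h, UAAGUGU, occurs in 1 member, Mir467e, and in 0.636% of all hairpins. A match is a description of the hairpin's letters and does not place a mature miRNA there. No whole mature sequence of these 8 genes occurs in any member.

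Nearly every member shared some sequence with another annotated miRNA hairpin. Of the 119 hairpins, 116 share an exact stretch of 22 bases, roughly 1 mature miRNA long, with another annotated miRNA hairpin. They share it mainly with each other, since 115 have such a partner inside the array and 25 have one elsewhere. The 3 without a partner are Mir466g, Gm22239 and Gm23542. In addition, 47 members have at least 1 other hairpin identical over its whole length, and these 47 represent 16 distinct sequences, with up to 9 copies of 1 sequence. In 54 members each 22-base window also occurs in another hairpin, against 244 of the 2083 other miRNA genes. A 22-base read lying within such a hairpin therefore matches more than 1 place in the annotated sequences, and CAST sequence was not searched. The median share of windows found in no other hairpin was 21.2% in the members and 100% in the other genes.

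Counted reads came from a small part of the array. A sense read was present in at least 1 library for 13 of the 119 members (10.9%), against 29.6% of all miRNA genes. These shares do not take shared sequence into account. Among hairpins with 50 to under 90% of windows found in no other hairpin, 36.4% of members had reads, against 8.75% of other genes. At 90% or more it was 57.1%, from 4 of 7 members, against 46.5%. Above 0 and under 50% it was 2.78% against 2.90%, and at 0% it was 0% against 1.23%. With 10 or more reads summed over both libraries there were 7 members (5.88%, against 15.6% of all miRNA genes), and 6 members reached 10 CPM in both libraries (5.04%, against 11.0%). The cluster took 2744 reads in library 1, or 0.137% of assigned reads, with an exact Clopper-Pearson 95% interval from 0.132 to 0.142%. It took 2067 reads in library 2, or 0.111% (0.106 to 0.116). The antisense counts of the 119 members were 0 in both libraries.

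Mir467d led the cluster in counted reads. This mir-467 hairpin (10507630 to 10507714) held 1806 reads in library 1 and 1350 in library 2, or 903 and 725 CPM, a mean of 814 ± 126. It ranked 76th and 79th among all 2202 miRNA genes. Its part of the cluster's reads was 65.8% in library 1, with an exact 95% interval from 64.0 to 67.6%, and 65.3% in library 2, with 63.2 to 67.4%, a difference within counting error.

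Mir467e was the next member (10505721 to 10505807), with 340 and 259 reads, or 170 and 139 CPM. It ranked 121st and 126th. Mir467d exceeded it 5.31-fold in library 1 and 5.21-fold in library 2. Mir467c (10473931 to 10474027) was the third mir-467 hairpin with reads, at 104 and 85, or 52.0 and 45.6 CPM. Together these 3 hairpins held 82.0% of the cluster's reads. The other 11 Mir467 genes, Mir467b and Mir467a-1 to Mir467a-10, had 0 counted reads in both libraries. These zeros set no limit on their levels. Each 22-base window of Mir467a-1 to Mir467a-10 also occurs in another hairpin, and only 11 of the 52 windows of Mir467b occur in no other.

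The mir-669 family gave most of the remainder. Mir669o (10514300 to 10514395) held 229 and 160 reads, or 114.5 and 85.9 CPM, and Mir669c (10509296 to 10509404) held 209 and 171, or 104.5 and 91.8 CPM. Mir669o was the higher of the pair in library 1 and Mir669c in library 2, so their order was within the spread. Mir669l (10468971 to 10469068) held 43 and 29 reads, or 21.5 and 15.6 CPM. Mir669e (10467495 to 10467613) held 4 and 9 reads, or 2.00 and 4.83 CPM. The Mir669e levels rest on few reads, and their exact 95% intervals overlap, from 0.545 to 5.12 CPM against 2.21 to 9.17 CPM.

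Apart from Mir669o and Mir669c, the levels of the 7 members kept 1 order in both libraries, from Mir467d through Mir467e, the Mir669o and Mir669c pair, Mir467c and Mir669l to Mir669e. Neighbours in that order did not overlap between libraries, except for the pair.

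**Figure D1:**
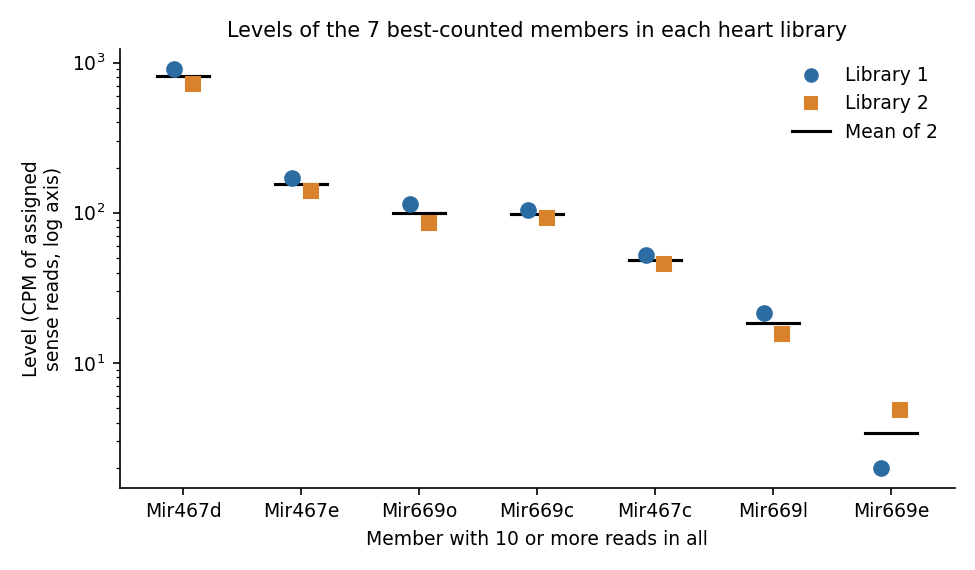
Level of each of the 7 members with 10 or more reads in all, in CPM of assigned sense reads on a log axis, with a circle for library 1, a square for library 2 and a bar for the mean of the 2. Mir467d stands at 903 and 725 CPM, above Mir467e at 170 and 139, and Mir669e is the member whose square lies above its circle.

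A further 6 members held 13 reads in all, with at most 6 for 1 gene. Mir669h had 5 reads in library 1 and 1 in library 2, Mir466h had 2 and 0, and Mir466n had 1 and 0. Gm22239 had 1 in each library, and Gm22072 and Gm25263 had 1 each in library 2.

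The other 106 members had 0 reads in both libraries. They include all 5 Mir297 genes, 21 of the 23 Mir466 genes, 24 of the 29 Mir669 genes and 45 of the 48 Gm-numbered genes. Among them are Mir669a-1 to Mir669a-12, whose product miR-669a is known for holding back the skeletal muscle program in cardiac progenitor cells. Mir466g and Gm23542 share no 22-base stretch with another annotated hairpin. For their 0 reads the limit set here is a fixed floor of 3 counts. That is 1.5 CPM for library 1 and 1.61 CPM for library 2, by counting error alone. This limit holds only for reads from windows with no copy elsewhere: in a search of all annotated transcripts on both strands, 58 of the 59 windows of Mir466g and 73 of the 75 of Gm23542 had no other match, and the genome outside annotated transcripts was not searched. For the members that share sequence, 0 counted reads set no such limit on the whole hairpin. They limit only reads from a member's own windows, where it has any.

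The members with reads lay towards the ends of the array. Between Mir467c and Mir467e lies an unbroken run of 72 members without a read, from Mir466b-1 to Gm26398 (10474219 to 10504773, 30.6 kb). In this run 52 of the 72 hairpins have no 22-base window of their own, against 2 of the 47 members outside it. The median share of own windows was 0% inside the run and 53.0% outside. The run repeats a unit: its 11 Mir467 genes follow each other at a median distance of 2454.5 bases, with 10 distances from 2413 to 4880. The longest distance spans Gm25022, whose hairpin is identical over its whole length to 6 Mir467a hairpins. Of the 47 members at the edges, 17 lie before the run, 4 of them with reads (275 in all), and 30 lie after it, 9 of them with reads (4536, or 94.3% of the cluster's reads).

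**Figure D2:**
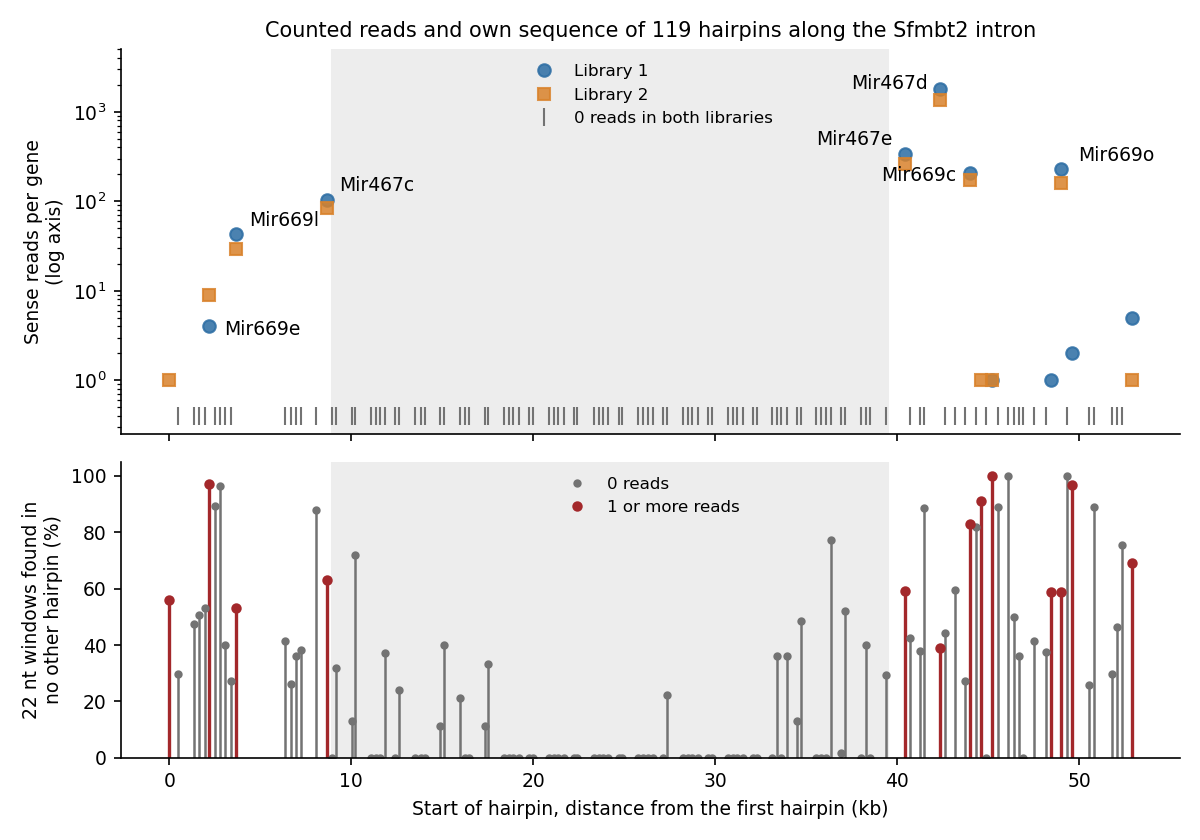
Sense reads of each hairpin on a log axis (top, circles for library 1, squares for library 2, ticks for 0 reads in both) and the percentage of its 22-base windows found in no other annotated hairpin (bottom), against the distance from the first hairpin in kb. The grey band is the run of 72 members without reads, where 52 hairpins stand at 0%, and Mir467c and Mir467e lie just outside its edges.

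The members with reads had more sequence of their own. None of the 54 members without an own window had a read. A 22-base read from them matches more than 1 place, and reads that map to several places are left out of every gene. So this 0 was close to fixed by the counting rule and does not describe their levels. Of the 36 members in which under 50% of windows were their own, 1 had reads, and that 1 was Mir467d at 39.1%. Of the 22 members from 50 to under 90%, 8 had reads, and of the 7 at 90% or more, 4 had reads. The other 2083 miRNA genes, counted the same way, showed 3 of 244 with reads at 0%, 8 of 276 under 50%, 23 of 263 from 50 to under 90%, and 605 of 1300 (46.5%) at 90% or more. Own sequence did not come with reads in each case, since 17 members with at least 50% of own windows had 0 reads, Mir466g and Gm23542 at 100% among them. The part of sequence sharing in the counts of 0 was not tested, because the reads that map to several places carry no gene in these tables.

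**Figure D3:**
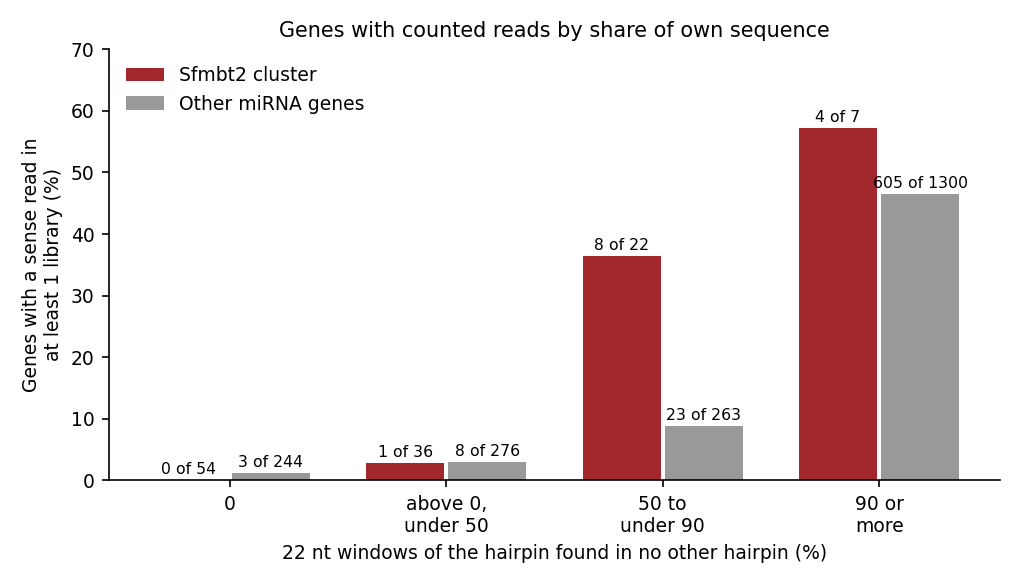
Percentage of genes with a sense read in at least 1 library, by the percentage of the hairpin's 22-base windows found in no other annotated hairpin, for the 119 cluster members (red) and the 2083 other miRNA genes (grey), with the number of genes above each bar. In the cluster 0 of 54 genes without own windows and 4 of 7 genes at 90% or more had reads. Reads that map to several places are left out of every gene, so the bars at 0% do not describe levels.

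The best-counted hairpins are close relatives of hairpins with 0 reads. Mir467d shares a 22-base stretch with 14 members, which are the 13 other Mir467 genes and Gm25022, and 12 of these had 0 reads. Its longest exact stretch in common is 60 of its 85 bases, with Mir467a-2 to Mir467a-10 and Gm25022. With Mir467e and Mir467c it shares stretches of 34 bases each, while those 2 share 48 bases with each other. Mir669o and Mir669c share 27 bases, and have 38 and 37 partners in the array, of which 36 and 35 had 0 reads. Mir669l shares 57 of its 98 bases with Mir669d, which had 0 reads. Mir669e has no 22-base partner in the array, its longest shared stretch there being 18 bases. It has 1 partner outside the array, and 95 of its 98 windows are its own. So the counts of these 7 members are uncertain, that of Mir669e over the fewest windows, since reads from the shared stretches could not be placed on 1 gene.

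Related genes outside Sfmbt2 had no counted reads. The 10 genes named for the same families elsewhere, which are Mir297-1, Mir466f-4, Mir466i, Mir466j, Mir466k, Mir466q, Mir467f, Mir467g, Mir467h and Mir669n, had 0 sense reads in both libraries. Of these, 9 share a 22-base stretch with another hairpin. Mir669n does not, and its 0 reads allow up to 1.5 and 1.61 CPM for reads from windows with no copy elsewhere. Its windows were compared with annotated miRNA hairpins only, not with all annotated transcripts.

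Set beside other imprinted miRNA genes, the counted reads of the cluster summed to a level below Mir335 and above Mir298, Mir483, Mir296 and Mir675 in both libraries. These 5 genes share no 22-base stretch with another annotated hairpin, while 116 of the 119 cluster members do, so the place below Mir335 holds for counted reads only. It summed to 1372 CPM in library 1 and 1110 in library 2, a mean of 1241 ± 186. Mir335, in the imprinted Mest gene, stood at 1778 and 1539 CPM. Mir298 and Mir296, from the imprinted Gnas region, stood at 75.0 and 107.9 CPM and at 39.5 and 16.6 CPM. Mir483, inside Igf2, stood at 99.0 and 75.2 CPM, and Mir675, made from H19, had 1 read in library 1 and 0 in library 2. The Dlk1-Dio3 cluster on chromosome 12, another large imprinted miRNA array, summed to 5341 and 3395 CPM, with reads in 46 of its 59 genes and a shared 22-base stretch in 5 of them. With 2 libraries no test between gene groups was made, and these values stand side by side as a description.

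The libraries were then compared gene by gene, by an exact two-sided conditional binomial test of reads over all 344 genes with 10 or more reads summed, Benjamini-Hochberg adjusted. The test sets 2 libraries of 1 group against each other on counting error, not conditions. By an adjusted p under 0.05 and a 2-fold ratio, 0 of the 7 members tested differed, against 17.2% of all genes tested. With TMM scaling the count was 0 (16.0% of all genes tested), and with DESeq2 scaling 0 (15.7%). At an unadjusted p under 0.05 there were 3 members (56.4% of all genes tested), and 3 by adjusted p alone (54.1%). Each of the 3 was higher in library 1, as were 36.3% of all genes tested by adjusted p alone. With TMM scaling 1 member passed the adjusted p alone (50.0% of all genes tested), and with DESeq2 scaling 1 (50.0%), Mir467d in both cases.

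These 3 were Mir467d, Mir467e and Mir669o. Mir467d had a log2 ratio of library 2 over library 1 of -0.32 (adjusted p = 3.57e-09, exact binomial test). Mir669o stood at -0.41 (adjusted p = 0.0112, exact binomial test) and Mir467e at -0.29 (adjusted p = 0.0300, exact binomial test). With TMM scaling, which adds 0.19 to every log2 ratio, Mir467d stood at -0.13 (adjusted p = 0.0298, exact binomial test), and Mir669o (0.223) and Mir467e (0.547) no longer passed. The other members did not pass: Mir669l at -0.46, Mir467c at -0.19, Mir669c at -0.19 and Mir669e at 1.18. The median of the 7 was -0.29, against -0.19 over all genes tested. With TMM scaling it was -0.10, against 0.00, and the ratios of Mir467c and Mir669c turned to slightly above 0. Members share sequence and a host intron, so they are not independent measurements.

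**Figure D4:**
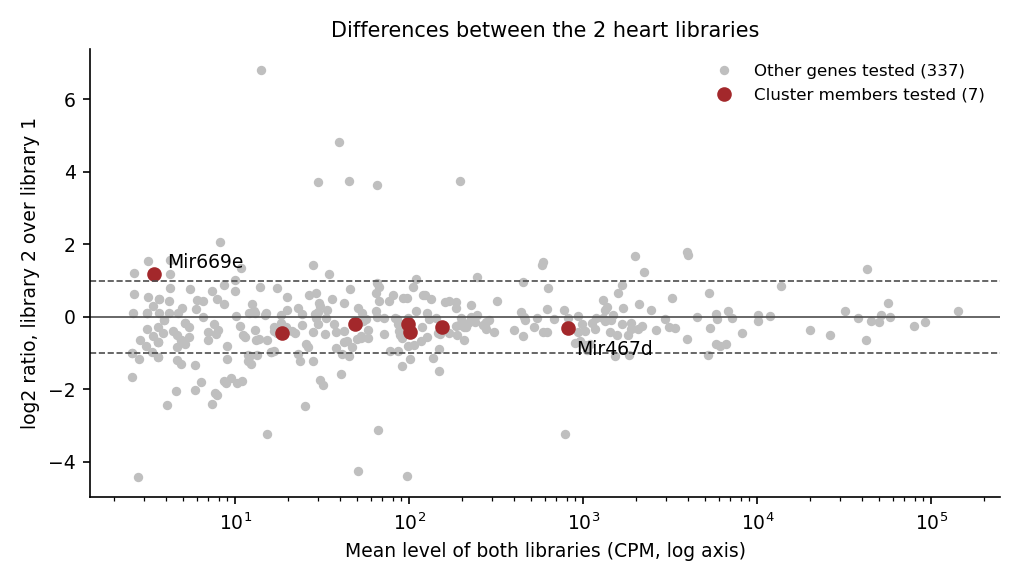
log2 ratio of library 2 over library 1 against the mean level in CPM on a log axis, for the 7 cluster members tested (red) and the 337 other genes tested (grey), with dashed lines at 2-fold. Members lie between -0.46 and -0.19 except Mir669e at 1.18, which rests on 13 reads.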

How the data were processed

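Short RNA was sequenced in 2 heart libraries. The deposited tables hold raw read counts per miRNA gene in 3 columns (both strands, sense, antisense), which the authors had not normalized. Per the text deposited beside them, assembly mm10 and annotation M21 were used; the aligner and counter: not given in the sources used here. Which strand a column holds was taken from the values. The first 4 rows name no gene and were left out. All 2202 gene IDs matched the annotation. The counts of the libraries differed beyond sampling noise (chi-square 92268 on 343 degrees of freedom).

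CPM were computed from sense counts over assigned totals, in which 1 read is worth 0.500 CPM in library 1 and 0.537 in library 2. Intervals are exact Clopper-Pearson at 95%, the floor is 3 counts, and both cover counting error only, since the labels name no molecular identifiers. For 0 reads the exact interval reaches above that floor, to 0.000185% of assigned reads in library 1 and 0.000198% in library 2. Hairpin sequences for the search of shared stretches came from the GENCODE M21 transcripts. Genome copies outside annotated genes were not searched. Log2 ratios had 0.5 added to each count. Genes named are members with 10 or more counts summed, related genes elsewhere and fixed lists; members with 1 to 9 reads and genes named as examples of 0 reads fall outside that rule and were chosen after their values were seen. Members, lists and tests were chosen with earlier results of these data known. The list entry Mir292a is Mir292 in M21. With 1 group, edgeR's quasi-likelihood test has no contrast; edgeR 4.0.16 (TMM over tested genes) and DESeq2 1.42.0 gave scaling factors only. Other tools were Python 3.11.15, SciPy 1.17.1 and statsmodels 0.14.6. Alternatives changed the denominator, scaling, thresholds, count column, pseudocount, stretch length and libraries.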

Additional observations from a re-analysis of the deposited data

Results flagged for a closer look

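Outside the measured genes, reads mapping to several places numbered 2273922 in library 1 and 2098983 in library 2. No gene is given for them, so how many came from the Sfmbt2 hairpins is unknown. Samples standing apart were not looked for in a group of 2.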

How the results depend on the processing

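The cluster's share of assigned reads, 0.124% ± 0.0186 (SD, n = 2), became 0.0462% of all reads, 0.145% without the most abundant gene in the total and 0.161% with both strands counted together. It was 0.111 to 0.137% when either replicate was left out. Members called between libraries went from 0 to 3 by adjusted p alone, and to 1 with TMM and to 1 with DESeq2 scaling, both combinations chosen after seeing the data. The ratio of Mir467c turned from -0.19 to 0.0027 with TMM scaling, and that of Mir669c from -0.19 to 0.0035 with TMM and 0.00076 with DESeq2 scaling. The share of Mir467d in the cluster (65.3 to 65.8%), the members at 10 CPM (5 to 7 over thresholds of 1 to 20 CPM), the members sharing a stretch (113 to 117 over 18 to 25 bases) and the 0 reads of related genes elsewhere stayed within 1.5 times of their values or the spread between libraries. The 54 members without an own window were also 54 against all annotated transcripts on both strands, a search chosen after seeing the data. The comparison of libraries has no value with a replicate left out. No paired analysis was possible because there is only 1 group. Depth limits statements on members with under 10 reads.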
